A study of Mus musculus with 15 samples.

Results

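Inhib_12 is 1 of the 12 clusters into which the authors divided the inhibitory neurons of the mouse prefrontal cortex (PFC). Its cells were taken by their cluster name in the deposited table of cells, which gave 74 of 35360 retained cells and 74 of the 2153 cells in clusters of inhibitory neurons. Of these, 30 came from adult mice (P60 in the study, 8-10 weeks in the sample labels) and 44 from mice at 3 weeks of age (P21). Cells were captured in droplets after dissociation, and transcripts were counted by unique molecular identifiers (UMIs), short tags that let copies of 1 molecule be counted as 1. All mice were male C57BL/6N, and the study's methods state that tissue of a pair of mice was pooled for each replicate. They also give fewer P21 mice than separate pairs for the P21 libraries would need, so those libraries may share animals, and p-values that count them as separate samples may be too small. The 12 P60 libraries came from mice after intravenous self-administration of saline or cocaine, 6 libraries each, taken during maintenance, 48 h after withdrawal or 15 days after withdrawal, with 2 libraries for each treatment and time. The 3 P21 libraries carry no treatment label. The tissue field of the labels reads NAc, whereas the titles and the source field name the PFC, which is used here.

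The P60 libraries held between 0 and 5 Inhib_12 cells each, 15 in saline and 15 in cocaine libraries, and P60 library 2 held none. P21 libraries 1, 2 and 3 held 16, 11 and 17. Because no P60 library reached 10 cells, the P60 cells were pooled by treatment, and Inhib_12 is described in 5 samples: P21 libraries 1 to 3, the P60 saline pool and the P60 cocaine pool. These held 196272, 91447, 121658, 199778 and 193151 UMIs in that order. Levels are given as a gene's UMIs scaled to a total of 1000000 UMIs over the same cells (CPM), after leaving out mitochondrial and ribosomal protein genes. A pooled level has an exact 95% Poisson interval, which covers counting error only and not the spread between mice. The authors drew the clusters from the P60 libraries and assigned P21 cells to them by correlation, so differences in level between Inhib_12 and the other clusters are descriptions and were not tested.

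Inhibitory neurons make GABA with the glutamate decarboxylases Gad1 and Gad2 and load it into vesicles with Slc32a1. In the cortex they fall into groups that carry parvalbumin, somatostatin or vasoactive intestinal peptide, and a further group that carries cholecystokinin (Cck) together with the cannabinoid receptor Cnr1, through which endocannabinoids reduce transmitter release from the axon terminal. Cacna1i, the gene named for Inhib_12, encodes a T-type calcium channel, a kind that opens at negative membrane potentials and supports bursts of spikes.

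The inhibitory class of the cells held up against its markers. Gad1 was at 1010 CPM and Gad2 at 677 CPM in the P60 cells, each with UMIs in 30 of 30 cells, and Slc32a1 had UMIs in 29 of 30 P60 and 40 of 44 P21 cells. In the deposited annotation, 73 of the 74 cells carry the class Inhibitory and 1, in P60 library 12, the class of oligodendrocyte precursors. The excitatory vesicular transporter Slc17a7 had 12 UMIs in 5 of the P60 cells, Slc17a6 had 0, Neurod2 had 1 and Neurod6 had 6. Cacna1i (ENSMUSG00000022416, chr15:80117668-80228709, plus strand, mm9) was at 53.4 CPM at P60 (interval 33.1 to 81.7, from 21 UMIs), the highest of the 12 clusters, with 26.9 CPM in Inhib_2 next. At P21 it was at 44.0 CPM, with 37.4 CPM in the next cluster. Over the samples it was at 45.9, 54.7 and 32.9 CPM in P21 libraries 1, 2 and 3, at 50.1 CPM in the saline pool and at 57.0 CPM in the cocaine pool, so the ages overlapped.

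Cacna1i was a sparse marker. At least 1 UMI was found in 46.7% of Inhib_12 cells at P60, at a median depth of 15424 UMIs, and in 7.67% of the cells of the other inhibitory clusters, at 7952 UMIs. In endothelial cells, which should lack the gene, 1.01% had a UMI at 4516.5 UMIs. With each cell thinned to 4000 UMIs the share was 10.0% in Inhib_12 (exact 95% interval 2.11 to 26.5, 3 of 30 cells), 3.83% in the other inhibitory clusters and 0.782% in endothelial cells (1663 of 3566 cells were deep enough). At P21 the thinned share was 20.5% in Inhib_12 (9.30 to 36.5, 8 of 39 cells), 6.67% in the other inhibitory clusters (4.92 to 8.79) and 1.84% in endothelial cells. In Inhib_11 alone the thinned share was 6.82% at P60 (1.43 to 18.7, 3 of 44 cells), an interval that overlaps that of Inhib_12. At P21 it was 6.06% there (0.743 to 20.2, 2 of 33 cells). The intervals treat cells as independent and do not test the difference between clusters. Slc35e2, a sugar transporter-like gene given beside Cacna1i as a marker of the cluster, separated it less. It was at 33.1 CPM at P60, against 30.5 CPM in Inhib_6, and at 29.3 CPM at P21, where 5 clusters were higher.

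A pair of other genes, Slc17a8 and Krt73, had far larger ratios to the next cluster than Cacna1i did. Slc17a8 (ENSMUSG00000019935, chr10:89036765-89083998, minus strand) encodes the vesicular glutamate transporter VGLUT3, and it was at 188 CPM at P60 (interval 148 to 236, from 74 UMIs), with 6.16 CPM in Inhib_3 next. It was at 148, 394 and 238 CPM in the P21 libraries, at 85.1 CPM in the saline pool and at 295 CPM in the cocaine pool, and the summed other clusters stayed far below it in every sample. UMIs of Slc17a8 were found in 16 of 30 P60 and 12 of 44 P21 cells, each of which also had Gad1 or Gad2, and Slc32a1 was found in 15 of those 16 and 10 of those 12 cells. Thinned to 4000 UMIs, 40.0% of Inhib_12 cells (22.7 to 59.4) and 0.104% of the other inhibitory cells had a UMI, with 0.361% in endothelial cells. Krt73 (ENSMUSG00000063661, chr15:101623739-101632774, minus strand), a keratin known from the hair follicle, was at 262 CPM at P60, with 38.7 CPM in Inhib_11 next. It was at 224, 98.4 and 280 CPM in the P21 libraries and at 185 and 342 CPM in the saline and cocaine pools, so its ages overlapped too. UMIs of Krt73 were found in 26 of 30 P60 and 25 of 44 P21 cells, and at 4000 UMIs in 63.3% of the P60 cells, 1.45% of the other inhibitory cells and 0% of endothelial cells.

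Slc17a8 and Krt73 did not mark separate cells. All 28 cells with Slc17a8 also had Krt73, 23 further cells had Krt73 without Slc17a8, and 4 P60 and 19 P21 cells had neither. Of the 16 P60 cells with Slc17a8, 14 also had Tac2, which encodes neurokinin B, against 5 of the 14 cells without it, and at P21 it was 9 of 12 against 16 of 32. Cacna1i had UMIs in 6 of the 16 P60 cells with Slc17a8 and 8 of the 14 without, and in 6 of the 12 P21 cells with Slc17a8 and 7 of the 32 without. These are counts in sparse data, and cells without a UMI may still express the gene.

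**Figure D1:**
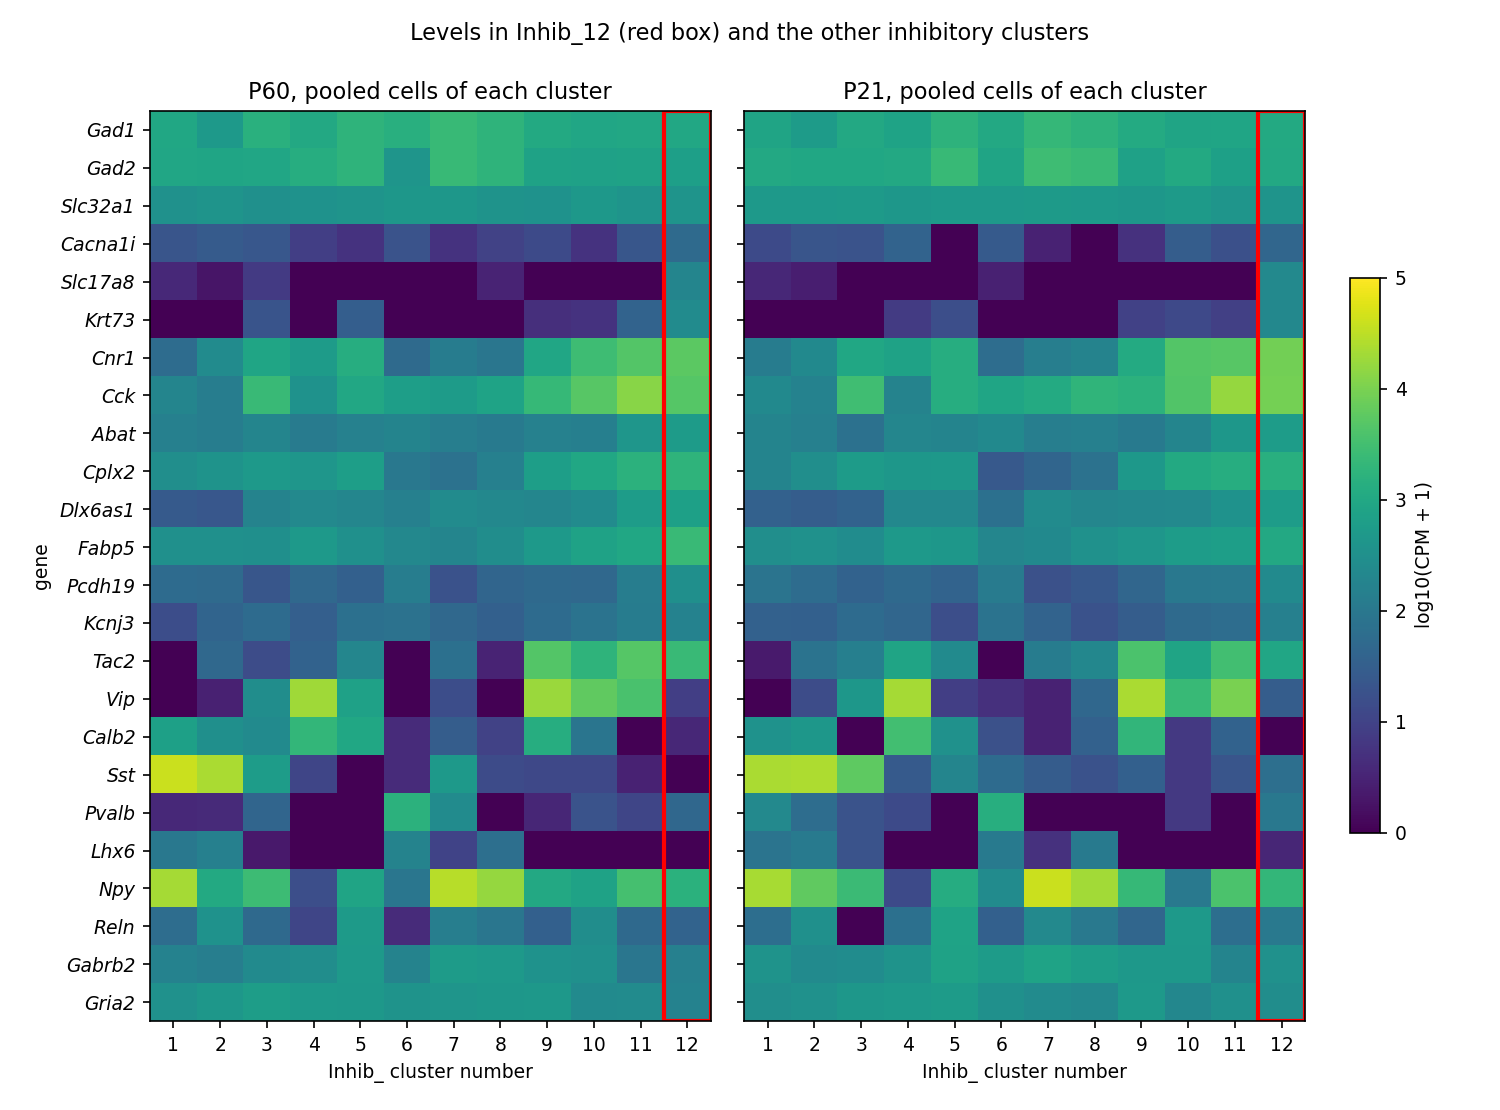
Level of 24 genes (log10 of CPM + 1, color scale) in the pooled cells of each of the 12 inhibitory clusters at P60 (left) and P21 (right), with Inhib_12 in the red box. Slc17a8 and Krt73 are high in Inhib_12 at both ages and at or near 0 in most other clusters, and Cnr1 and Cck are shared with Inhib_10 and Inhib_11.

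Inhib_12 cells carried both Cnr1 and Cck in abundance. Cnr1 (ENSMUSG00000044288, chr4:34011568-34035806, plus strand) had UMIs in all 74 cells and was at 5502 CPM at P60, against 4623 CPM in Inhib_11 and a median of 550 CPM over the other clusters. It was at 6155, 12258 and 9708 CPM in the P21 libraries and at 5266 and 5747 CPM in the saline and cocaine pools. Cck had UMIs in all 74 cells as well, at 4741 CPM at P60, but here Inhib_11 was higher, at 12668 CPM. Cck varied widely between samples, from 2122 CPM in the saline pool to 14103 CPM in P21 library 1, and 1 library, P60 library 10, held 39.7% of its P60 UMIs.

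Other genes of this group were shared with Inhib_10 and Inhib_11. Sncg, gamma-synuclein, was at 562 CPM in Inhib_12 at P60 and 878 CPM in Inhib_10, and Adarb2, a marker of interneurons from the caudal ganglionic eminence, was at 267 and 295 CPM. Tac2 was at 2395 CPM, below the 4709 CPM of Inhib_11, and 19 of the 30 P60 cells had it. Within the endocannabinoid system, Mgll, the lipase that breaks down an endocannabinoid, was at 534 CPM and Faah, the other main hydrolase, at 20.4 CPM. The 9 genes of that list, which was drawn up after the values were seen, summed to 6464 CPM at P60, the highest of the clusters, of which Cnr1 was the largest part.

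By ratio to the next cluster, the genes after Slc17a8 and Krt73 were Phgdh, Pag1, Sesn2, Fabp5, Impdh1, Cdr2l, Psat1, Cyb5r1, Iah1 and Pcdh19. Fabp5, a fatty acid binding protein, was at 2461 CPM at P60 and 965 CPM in Inhib_11, and Pcdh19, a cell adhesion protein, at 305 and 132 CPM. Both were also highest in Inhib_12 at P21, at 1031 and 244 CPM. Impdh1, an enzyme of guanine nucleotide synthesis, was at 102 CPM at P60 and 154 CPM at P21, again above every other cluster. The other 7, Phgdh, Psat1 and Sesn2 among them, led at P60 and not at P21. All genes of this ranking were chosen by their P60 ratio, so the lead at P60 was fixed by the choice. Its loss at P21 does not by itself show a change with age.

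Sst, Lhx6, Vip and Calb2, which mark other interneuron groups, were absent or nearly so. Sst and Lhx6, the transcription factor of interneurons from the medial ganglionic eminence, had 0 UMIs in the 30 P60 cells, which allows up to 7.63 CPM. Vip had 3 UMIs in 1 cell and Calb2, calretinin, had 1 UMI, against up to 19299 and 2013 CPM in Inhib_4. Pvalb had 18 UMIs in 9 cells (45.8 CPM), the third place among the clusters, against 1611 CPM in Inhib_6. Its share in endothelial cells was not measured here, so stray RNA and expression cannot be told apart. Of genes with a median of at least 100 CPM over the other clusters, Vip, Calb2, Parm1, Nxph1, Cryab and Rbfox1 had the 6 lowest ratios in Inhib_12, the last 4 at 2.55, 2.55, 10.2 and 12.7 CPM. Prox1 and Nr2f2, which like Adarb2 are known from interneurons of the caudal ganglionic eminence, were at 5.09 and 125 CPM, both below the median of the other clusters, so the markers of that origin did not go together.

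**Figure D2:**
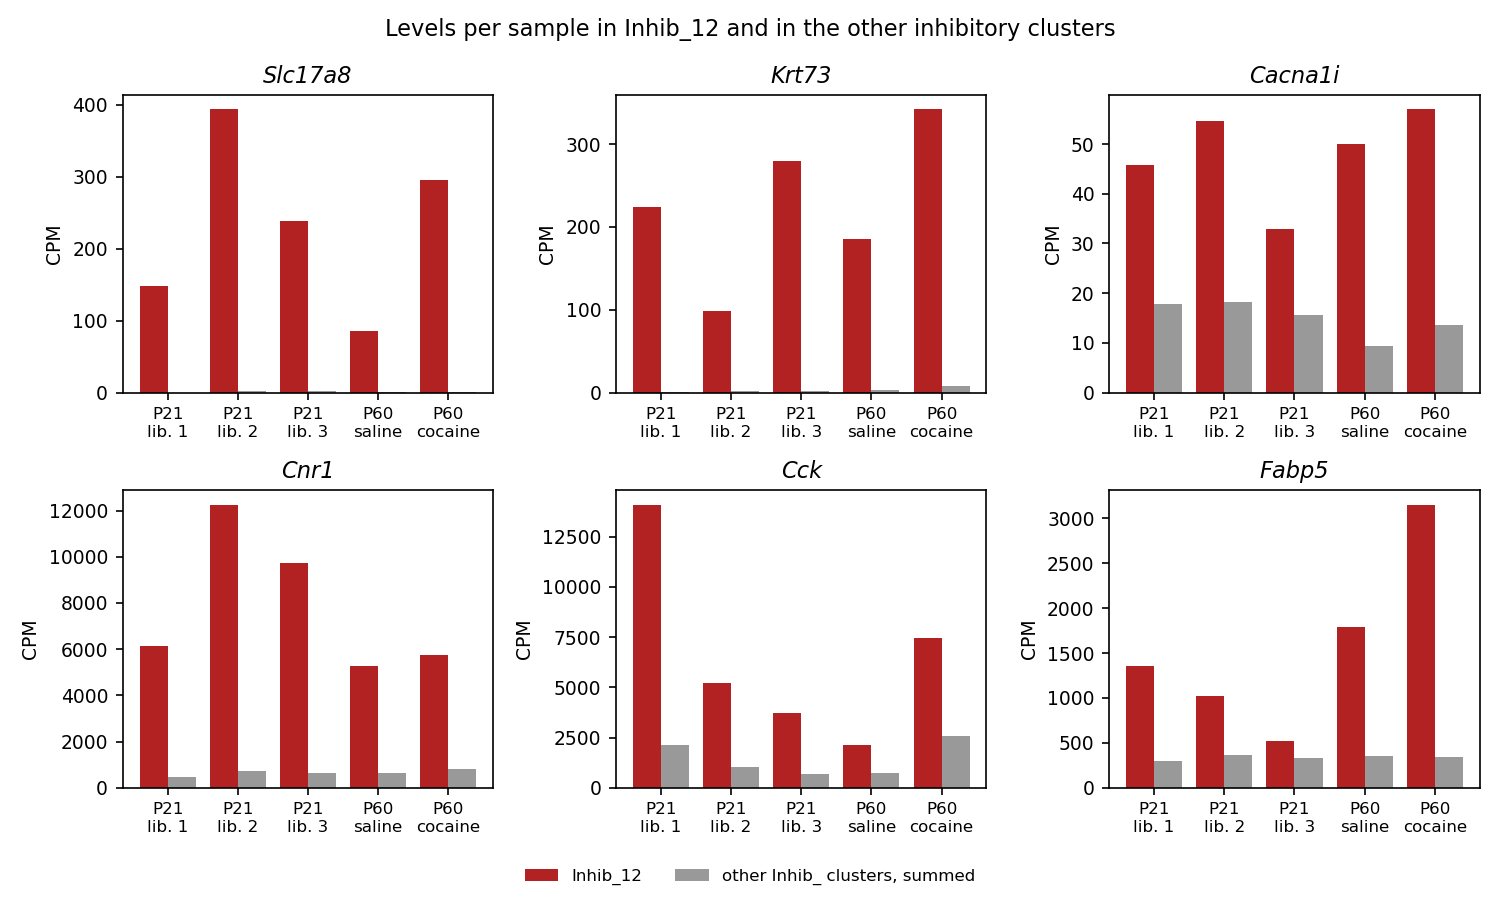
Level in CPM of 6 genes in each of the 5 samples, as bars for Inhib_12 (red) and for the other inhibitory clusters summed (gray). Inhib_12 lies above the other clusters in every sample for each of these genes, and for Fabp5 both P60 pools lie above the 3 P21 libraries.

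Among transcription factors, Dlx6as1, the noncoding RNA over the Dlx6 gene, was at 680 CPM at P60, Dlx5 at 244 CPM and Maf at 295 CPM, the highest of the clusters, and Sp8 was at 160 CPM against 110 CPM in Inhib_3. The noncoding RNA overlaps its partner on the other strand, and the counting is not stated to separate strands in the sources used here. Abat, which breaks down GABA, was at 557 CPM against 423 CPM in Inhib_11. Cplx2, a complexin that clamps vesicle fusion, was at 1792 CPM against 1614 CPM. Npas1 and Npas3 ranked between the first and the third place.

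At P60 the sums of both receptor lists were the lowest of the 12 clusters, while the sum of the calcium channels was level with that of the next cluster within counting error. The 17 voltage-gated calcium channel genes summed to 1138 CPM at P60 (exact interval 1035 to 1248, from 447 UMIs), against a maximum of 1112 CPM in the other clusters, and to 1361 CPM at P21 (1250 to 1478), against 1250 CPM. At P60 5 of them, with Cacna1i, Cacna1b and Cacna2d3 among them, were highest in Inhib_12. Cacna1b, the N-type channel of axon terminals, was at 160 CPM, whereas Cacna1a, the P/Q-type channel, had 0 UMIs at P60. Potassium channel genes summed to 1374 CPM, the second highest, with Kcnj3, a G protein-gated channel subunit, at 163 CPM against 124 CPM in Inhib_11. The 12 GABA-A receptor subunits summed to 443 CPM, below the 562 to 1780 CPM of the other clusters, and the 14 ionotropic glutamate receptor subunits to 649 CPM, below 855 to 2209 CPM. Gabrb2 was at 150 CPM (median of the other clusters 283 CPM) and Gria2, of the AMPA receptor, at 160 CPM (median 449 CPM). At P21 these lists summed to 918 and 977 CPM in Inhib_12, within the ranges of 742 to 2013 CPM and 829 to 2115 CPM of the other clusters. The 15 synaptic vesicle release genes summed to 10969 CPM, the fifth place.

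By its whole profile, Inhib_12 was most like Inhib_11. Over 3491 genes with a mean of at least 50 CPM, Spearman's correlation of the pooled levels was 0.913 with Inhib_11 and 0.836 with Inhib_10 at P60, and 0.718 with Inhib_8, the lowest. At P21 the values were 0.876 and 0.839 over 3514 genes. These are correlations across genes, which are not independent replicates, between clusters of the same libraries.

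Inhib_12 cells were large in captured RNA. The median was 15424.5 UMIs and 4162 genes per cell at P60, against 7952 UMIs and 2951 genes in the other inhibitory clusters, and 10694 UMIs and 3506 genes at P21, against 6641.5 and 2651.5. The median share of mitochondrial UMIs was 4.28% at P60 and 5.70% at P21, against 2.81% and 3.80% in the other clusters. The medians of UMIs, genes and the mitochondrial share were above those of the other inhibitory cells in each of the 14 libraries with Inhib_12 cells. Inhib_6 had the nearest mitochondrial share, at 3.80% and 5.51%.

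Markers of another class were found in 5 of the cells: 1 in P60 library 9 with 7 UMIs of Slc17a7, the cell of P60 library 12 with 4 UMIs of Pdgfra, 1 in P21 library 1 with 10 UMIs of Slc17a7, and 2 in P21 library 3, with 10 UMIs of Vip and with 24 of Sst and 37 of Pvalb. Markers of other cell classes were low as lists: at P60 the astrocyte, oligodendrocyte, precursor, microglia and endothelial markers summed to 463, 78.9, 43.3, 20.4 and 40.7 CPM, and the precursor markers to 80.1 CPM in the saline pool, which holds the cell of library 12. At P21 the microglia markers summed to 279 CPM in library 3 and to at most 35.7 CPM in the other 2. Without the 5 cells Slc17a8 was at 178 CPM and Krt73 at 268 CPM at P60. The authors state that they removed cells with unusually many genes as likely double droplets, and no further caller was run here. Yet the single Inhib_12 cells of P60 libraries 5 and 8 had 4960 and 4861 genes. Both lie above the cut that the study gives, so such cells remain. Of the retained cells, 747 barcodes occurred in more than 1 library, 0 of them shared between Inhib_12 cells and 1 shared between an Inhib_12 cell and a cell of another cluster or class.

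The share of Inhib_12 among inhibitory neurons was between 0% and 14.3% over the P60 libraries and between 3.65% and 5.52% over the P21 libraries. Over all cells it was 2.52% at P60 (exact 95% interval 1.71 to 3.58, 30 of 1191) and 4.57% at P21 (3.34 to 6.09, 44 of 962). The P21 libraries 1, 2 and 3 had 5.52%, 3.65% and 4.58%. The saline libraries had 0% (library 2, 0 of 19 cells, which allows up to 15.8%), 14.3% (library 3, 4 of 28 cells), 1.69% (library 5), 1.83% (library 7), 1.47% (library 11) and 3.47% (library 12). The cocaine libraries had 5.88% (library 1), 4.17% (library 4), 9.68% (library 6), 0.658% (library 8), 1.38% (library 9) and 2.76% (library 10).

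Apart from library 3, the 5 saline libraries all lay below the 3 P21 libraries. The mean was 4.58 ± 0.931% at P21 (SD, n = 3) and 3.79 ± 5.26% in saline (SD, n = 6), a difference not past the threshold in the exact permutation test with both sides counted (p = 0.869, smallest possible 0.0119). Without P60 library 3 the difference was 2.89 percentage points and p was 0.0179 in the exact permutation test, the smallest that this split allows. As a share of all retained cells, which also moves with the other classes, the means were 0.423% and 0.140% (exact permutation p = 0.0238). Cocaine libraries averaged 4.09 ± 3.33% (SD, n = 6), 0.293 percentage points above saline (exact permutation within time points, p = 0.954, smallest possible 0.00463). These 2 comparisons make up the family of shares tested. Shares describe the cells that survived dissociation, and each P60 library rests on at most 5 Inhib_12 cells.

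**Figure D3:**
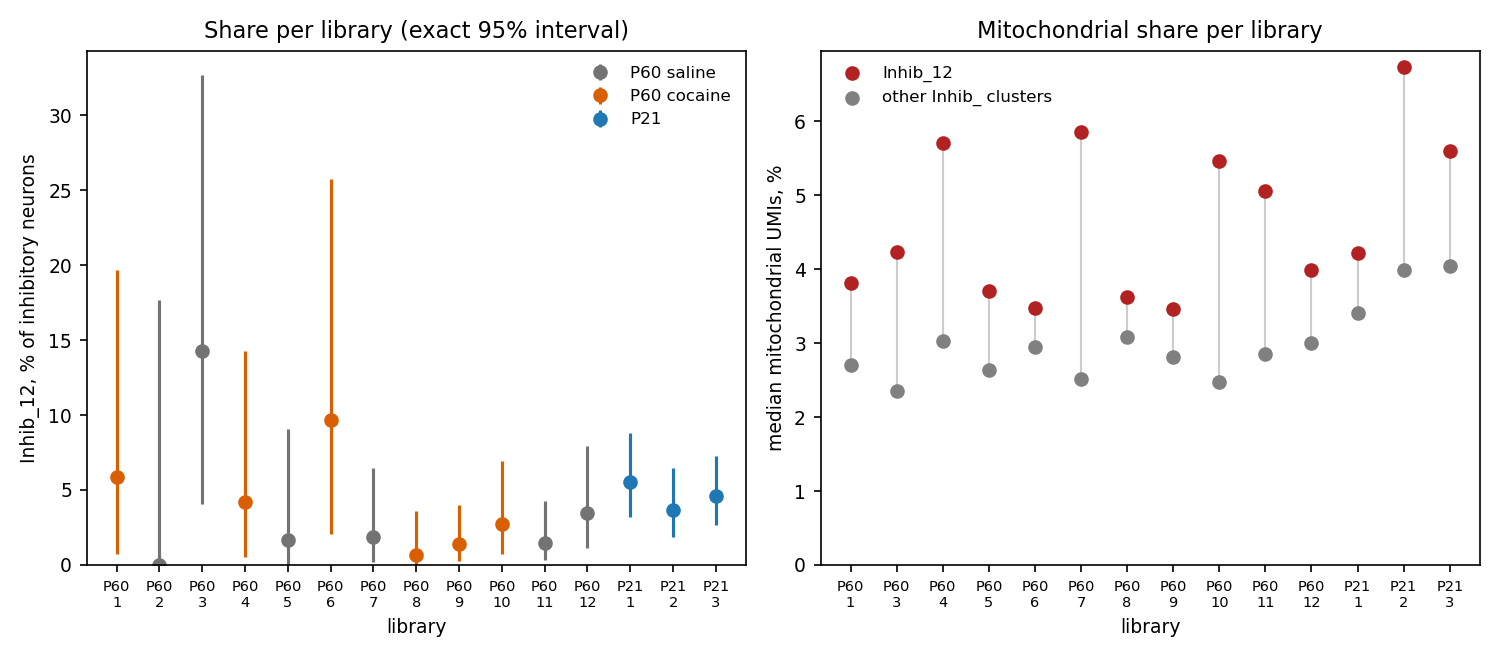
Left, share of Inhib_12 among the inhibitory neurons of each library in percent, with exact 95% binomial intervals as bars. Right, median percent of mitochondrial UMIs per library in Inhib_12 (red) and in the other inhibitory clusters (gray), for the 14 libraries with Inhib_12 cells. P60 library 3 stands out at 14.3%, and the red points lie above the gray ones in every library.

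To learn how Inhib_12 differs between the juvenile and the adult cortex, the 2 P60 pools were compared with the 3 P21 libraries. No library holds both ages, so age and library preparation cannot be told apart, and the P60 pools sum cells of several libraries. By the study's methods the P60 mice, saline included, also went through food restriction, catheter surgery and self-administration. Age and that procedure cannot be told apart either. With edgeR's quasi-likelihood test, 92 of 4010 genes (2.29%) were called, which required a p of under 0.05 after Benjamini-Hochberg adjustment and more than a 1.5-fold change. They were 48 genes higher at P60 (1.2% of those tested) and 44 lower (1.1%). The count depends heavily on single samples: it was 7 without P21 library 2, 9 without P21 library 3, 511 without P21 library 1, 34 without the cocaine pool and 108 without the saline pool. Without a pool the P60 side is 1 sample, which is assumed to vary like the P21 libraries. With each P60 library of at least 2 cells as its own sample, 129 of 1193 genes were called, among them 43 of the 48 genes of the 92 that were tested. With the saline libraries of that kind alone, 73 of 1670 genes were called, among them 40 of 61. The direction of the 92 genes was the same in every one of these fits in which they were tested.

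The genes with the largest rises at P60 included the enzymes of serine synthesis. Phgdh, Dhrs7, Psat1, Chac1, Slc7a5 and Psph had the 6 largest, Dhrs7, a dehydrogenase of retinoid and steroid metabolism, from 1 UMI at P21 and 26 at P60 (ratio 27.1, exact interval 4.45 to 1111). ATF4 is a transcription factor whose protein is made when translation start is restrained, for example when amino acids are short, and it raises genes of amino acid synthesis and uptake. Of a list of 40 ATF4 target and amino acid response genes, drawn up after the values were seen, 20 were tested, 13 rose and 0 fell, where 1.2% of all genes were called higher, with a median log2 change of 2.00, against -0.03 over all genes tested. These counts describe the list and do not test it. Its summed level was 1376, 1181 and 1693 CPM in the P21 libraries and 4020 and 5058 CPM in the saline and cocaine pools, which do not overlap. In the other clusters at P60 it lay between 1214 and 2673 CPM.

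Phgdh (ENSMUSG00000053398, chr3:98117093-98143913, minus strand) and Psat1 (ENSMUSG00000024640, chr19:15979168-16021827, minus strand), the enzymes of the first and the second step from a glycolytic intermediate to serine, had the steepest rises of this list. Phgdh was at 0, 0 and 16.4 CPM in the P21 libraries and at 165 and 311 CPM in the saline and cocaine pools, from 2 and 93 UMIs, a ratio of 48.4 (exact interval 13.04 to 406, counting error only), with an adjusted p of 2.82e-05. Psat1 was at 0, 0 and 24.7 CPM and at 140 and 176 CPM, from 3 and 62 UMIs, a ratio of 21.5 (7.03 to 107), with an adjusted p of 0.000345. Psph, which completes the pathway, was at 30.6, 43.7 and 16.4 CPM and at 175 and 212 CPM, a log2 change of 2.72 ± 0.44 (SE). Both P60 pools lay above all P21 libraries for each of these enzymes. That held no information beyond the call, since the groups did not overlap for any of the 92 called genes. The share without overlap over all tested genes was not counted. UMIs of Phgdh were found in 22 of 30 P60 and 2 of 44 P21 cells, and thinned to 4000 UMIs in 53.3% and in 0 of 39 cells, which allows up to 7.69%. Inhib_11 moved in the same direction, with thinned shares of Phgdh of 18.2% at P60 (8 of 44 cells) and 0% at P21 (0 of 33 cells, which allows up to 9.09%). For Psat1 the thinned shares at P60 and P21 were 40.0% and 5.13% in Inhib_12 and 25.0% and 6.06% in Inhib_11. In the other inhibitory cells together and the endothelial cells the thinned shares of Phgdh were 7.35% and 2.41% at P60. At P21 they were 2.17% and 3.92%. For Psat1 the other inhibitory cells together were at 13.5% at P60 and 4.93% at P21. The searched end of Phgdh has 14 near-identical copies elsewhere in the genome, so some of its reads may belong to a copy, whereas that of Psat1 has none. Of the other genes named here, Gad1, Id2, Psmc1, Ubb and Morf4l2 also have such copies.

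Atf4, Ddit3 and Cdkn1a of the same list also rose. Atf4 (ENSMUSG00000042406, chr15:80085614-80087970, plus strand) was at 341, 284 and 436 CPM at P21 and at 921 and 1036 CPM at P60, a log2 change of 1.498 ± 0.25 with an adjusted p of 0.000675. Ddit3 (ENSMUSG00000025408, chr10:126727830-126733344, plus strand), the stress factor CHOP, was at 153, 65.6 and 115 CPM and at 425 and 730 CPM, a change of 2.32 ± 0.33 with an adjusted p of 0.000191. Cdkn1a (ENSMUSG00000023067, chr17:29227924-29237667, plus strand), an inhibitor of cyclin-dependent kinases, was at 25.5, 54.7 and 32.9 CPM and at 245 and 197 CPM, a change of 2.68 ± 0.41 with an adjusted p of 0.000345. Ddit3, Cdkn1a, Psph and Phgdh were called in each alternative fit, among them those with single P60 libraries as samples.

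The list also held risers of other roles. Asns, asparagine synthetase, was at 127, 43.7 and 156 CPM and at 330 and 461 CPM, a change of 1.82 ± 0.35. Chac1, which degrades glutathione, was at 5.10, 21.9 and 16.4 CPM and at 105 and 119 CPM, a change of 3.14 ± 0.57. Slc7a5 and Slc3a2, the light and the heavy chain of an amino acid transporter, rose by 3.12 ± 0.69 and 1.63 ± 0.35, and Sesn2, a nutrient and stress sensor, Atf5, a transcription factor, and Herpud1, of protein quality control, by 2.40 ± 0.63, 2.13 ± 0.47 and 1.97 ± 0.44. Of 20 cytosolic aminoacyl-tRNA synthetases, which charge tRNAs with amino acids, 14 were tested and 3 rose, Nars, Sars and Wars, with a median of 0.78, where 1.2% of all genes were called higher. Of 12 tested chaperones of the endoplasmic reticulum, 0 were called and the median was -0.09, and of 30 tested proteasome subunits 3 rose, Psmc1, Psmc5 and Psmd13, with a median of 0.72. These 3 lists were also drawn up after the values were seen, so their counts beside the 1.2% are descriptions.

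The summed level of the listed ATF4 genes was higher in 10 of the 11 P60 libraries with Inhib_12 cells than in every P21 library. It lay between 1671 and 9171 CPM in the P60 libraries, with a median of 4215 CPM, and the lowest value, that of the 1 cell of library 5, was below the 1693 CPM of P21 library 3. As a mean over cells in place of summed UMIs, P21 library 3 was at 1623 CPM and library 5 lay above it. Single cells overlapped. The listed genes took 1247 to 10085 CPM in the P60 cells (median 4321) and 316 to 3439 CPM in the P21 cells (median 1304), and 9 of the 30 P60 cells lay below the highest P21 cell. A median of 17.5 of the listed genes had UMIs at P60 (8 to 26) and 7 at P21 (1 to 14), at the different depths given above. The number of listed genes that rose was 4 without P21 library 2, 6 without P21 library 3, 7 without the cocaine pool, 11 without the saline pool and 13 without P21 library 1. Without the 5 cells with markers of another class, 12 of 19 tested rose.

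Several other measures moved with age beside this list, and their part in it was not tested. Phgdh and Psat1 are known to be strong in astrocytes. Of the 8 astrocyte markers, Aqp4 and Gfap were at 0 in the P60 cells, Gja1 and Slc1a3 had 1 UMI each, and Clu, Slc1a2, Aldoc and Apoe had 79, 46, 31 and 24 UMIs, 17 of the last in P60 library 12. Clu was at 201 CPM at P60 and 161 CPM at P21, below the median of the other clusters at P60 (445 CPM). The list summed to 606 and 316 CPM in the saline and cocaine pools and to 317 to 489 CPM in the P21 libraries. Of its 4 tested genes 0 were called, beside 2.29% of all genes, a share at which so few genes would hold few calls. The median mitochondrial share was lower at P60 than at P21 (4.28% and 5.70%), and the median depth was higher (15424.5 and 10694 UMIs). The median share of ribosomal protein UMIs was 8.11% at P60 and 5.79% at P21, against 7.14% and 5.46% in the other inhibitory clusters. Nuclear-retained and long noncoding RNAs summed to 79373 and 70152 CPM in the saline and cocaine pools. In the P21 libraries they summed to 46114 to 56167 CPM. The 14 immediate early and heat shock genes, which dissociation can raise, summed to 3114 and 3593 CPM in the P60 pools and to 2056 to 2884 CPM in the P21 libraries. Of the list's 1316 UMIs at P60, 1146 were of Hspa8, whose searched end has 11 near-identical copies elsewhere. The median log2 change of the 4 tested genes was -0.92, with 0 called, beside 2.29% of all genes. Fos was at 150 CPM at P60 and 276 CPM at P21, and at 84.1 CPM at P60 without P60 library 12, which held 30 of its 59 UMIs. Phgdh, Psat1 and Sesn2 were also among the genes that most set the P60 cells of Inhib_12 apart from the next cluster, and clusters were drawn at P60, so how cells were chosen and the age difference of such genes cannot be told apart.

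**Figure D4:**
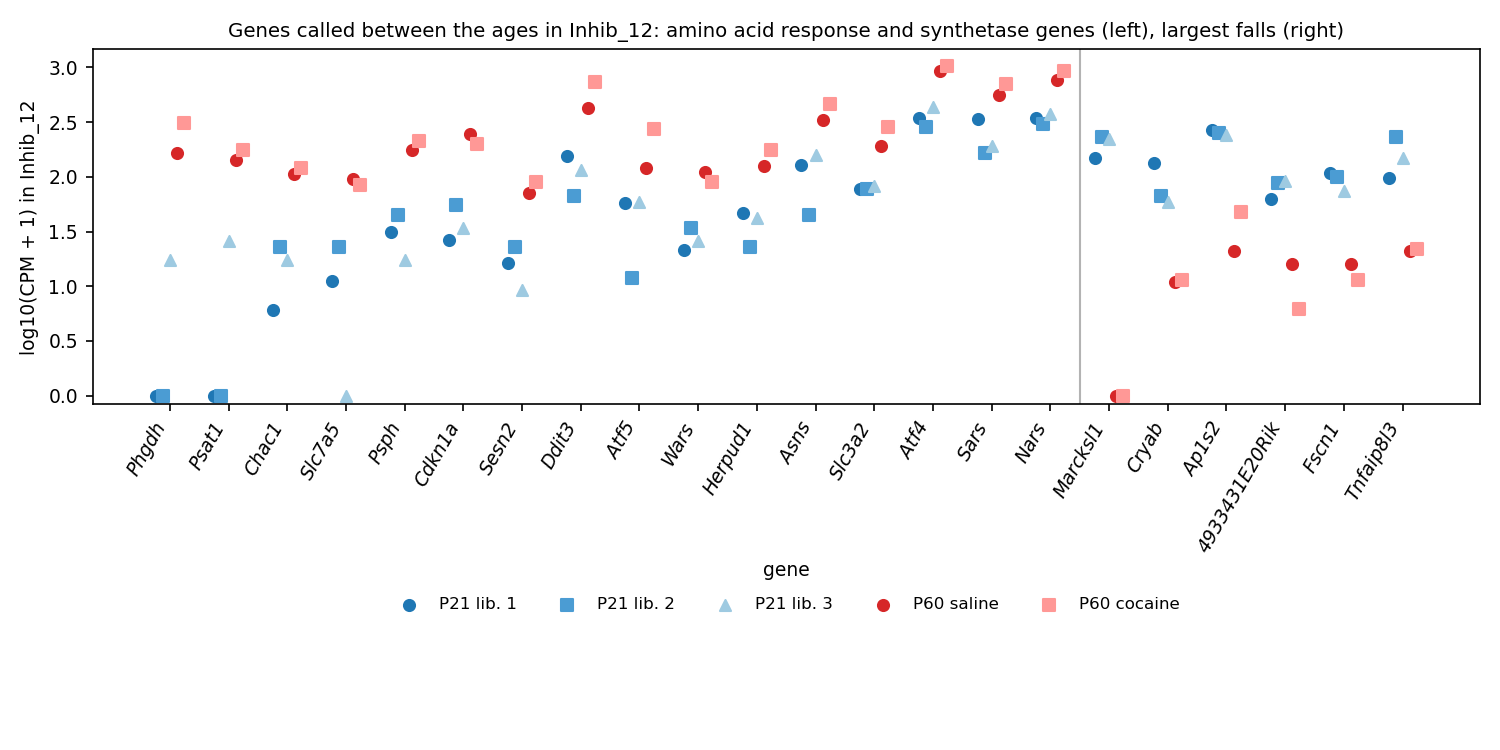
Level in Inhib_12 (log10 of CPM + 1) of genes called between the ages, in the 3 P21 libraries (blue) and the 2 P60 pools (red). The amino acid response and synthetase genes at the left lie higher in both P60 pools, and the 6 largest falls at the right lie lower, with Marcksl1 at 0 in both pools.

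The start regions of the called and the listed genes were searched for TGATGNAA, a composite element known to bind ATF4 with a partner of the C/EBP family, on both strands in the 250 bases before the start (RefSeq, GRCm38.p6, a later build than the mm9 of the counts). It was found in 5 of the 37 genes higher at P60 that have a window (13.5%: Asns, Chac1, Herpud1, Psmd13 and Ubb), in 0 of 34 genes lower at P60, in 62 of 2905 tested genes (2.13%) and in 3.91% of 27025 genes overall. The element was no more frequent among the ATF4-list genes that rose, at 3 of 12 with a window (25.0%), than in the whole list, at 10 of 36 (27.8%). Of the synthetases it was in 3 of 12, Aars, Gars and Tars, none of which was called between the ages. The ATF4 list holds 3 of the 5 matches among the genes higher at P60, and its genes were listed as known targets after the values were seen, so the matches say nothing of what raised the genes. They describe letters and are not shown to be bound. The 3 of the list are printed on the strand of the gene, with the match in capitals, at chr6:7693210-7693256 (minus strand), chr2:119351025-119351080 (plus strand) and chr8:94386293-94386348 (plus strand).
Asns: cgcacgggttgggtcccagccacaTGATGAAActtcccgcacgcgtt
Chac1: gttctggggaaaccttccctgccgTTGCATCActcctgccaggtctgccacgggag
Herpud1: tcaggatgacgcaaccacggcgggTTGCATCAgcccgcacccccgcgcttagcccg
The match of Asns reads in the direction of the gene and lies 23 bases before the start, and those of Chac1 and Herpud1 read on the opposite strand, 193 and 112 bases before it.

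The 6 largest falls at P60 were those of Marcksl1, Cryab, Ap1s2, 4933431E20Rik, Fscn1 and Tnfaip8l3. Marcksl1 (ENSMUSG00000047945, chr4:129190825-129193229, plus strand), a substrate of protein kinase C, was at 148, 230 and 222 CPM in the P21 libraries and had 0 UMIs in both P60 pools, with an adjusted p of 4.75e-06. Its pooled P21 level, from 77 UMIs, was 24.6-fold the P60 floor of 3 UMIs over the 30 cells, with the counting error of the P21 count left out. Its end has 1 near-identical copy elsewhere. Fscn1, an actin bundling protein, was at 107, 98.4 and 74.0 CPM and at 15.0 and 10.4 CPM, a fall by 2.78 ± 0.58 on the log2 scale. Tmsb4x, which binds actin monomers and was chosen after its values were seen, was at 6654, 8759 and 8360 CPM and at 3769 and 3484 CPM, a fall by 1.08 ± 0.24. Of the 12 tested genes of the list of axon growth and immature neurons 1 was called, Marcksl1, where 1.1% of all genes were called lower. The median was -0.57.

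Cryab (ENSMUSG00000032060, chr9:50560863-50564738, plus strand), a small heat shock protein, was at 132, 65.6 and 57.5 CPM at P21 and at 10.0 and 10.4 CPM at P60, a fall by 3.05 ± 0.66. Ap1s2, an adaptor subunit of vesicle coats, was at 265, 252 and 238 CPM and at 20.02 and 46.6 CPM, and it was called in each alternative fit. Its searched end has 1 copy elsewhere, at 99.7% identity, so some of its reads may belong to the copy. Rbfox1, a splicing regulator, was at 86.6, 65.6 and 115 CPM and at 10.0 and 15.5 CPM. In all of these both P60 pools lay below every P21 library. The groups did not overlap for any of the 92 called genes, so this adds nothing to a call. Tnfaip8l3 and the noncoding 4933431E20Rik fell by 2.78 ± 0.52 and 2.80 ± 0.70.

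Few genes of the neuronal lists were called between the ages, and at the share of 2.29% called over all genes lists of this size would hold few calls. Of 6 tested GABA-A receptor subunits 1 fell, Gabrb2, at 229, 481 and 427 CPM in the P21 libraries and at 190 and 109 CPM in the pools, and the median of the list was -0.94. Of the calcium, sodium and potassium channel lists 0 of 8, 0 of 6 and 0 of 11 tested genes were called, with medians of -0.28, -0.41 and -0.43. Of 14 tested vesicle release genes 0 were called (median -0.35), and of 12 tested transcription factors 0 (median -0.01). The noncoding Snhg11 rose, from 2756, 2460 and 2104 CPM to 5852 and 5317 CPM. With 5 samples, a gene that was not called may still differ.

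To ask whether these changes also occurred in the other inhibitory neurons of the same libraries, the age change of Inhib_12 was compared with that of the other inhibitory clusters summed, as an interaction. Of 9397 genes tested, 102 (1.09%) were called, 38 with a higher (0.404%) and 64 with a lower (0.681%) change in Inhib_12. The count was 208 without P21 library 1, 50 without P21 library 3, 37 without the cocaine pool and 58 without the saline pool. The clusters that make up the others were mixed differently at the 2 ages, with Inhib_7 at 32.9% of inhibitory neurons at P60 and 7.9% at P21, and Inhib_2 at 9.4% and 35.5%.

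Of the ATF4 list, 31 were tested here, 11 had a higher change in Inhib_12 and 0 a lower one, with a median of 1.49, against 0.03 over all genes. Cdkn1a had the smallest adjusted p among them. In the summed other clusters it was at 45.9, 65.3 and 65.5 CPM at P21 and 36.2 and 47.4 CPM at P60, while it rose in Inhib_12, a difference of 3.26 ± 0.44 (SE) on the log2 scale with an adjusted p of 4.87e-10. Ddit3 was at 128, 104 and 86.4 CPM and at 141 and 138 CPM in the other clusters, a difference of 2.03 ± 0.33 with an adjusted p of 7.87e-07. For Atf4 the other clusters were at 260, 195 and 179 CPM and at 286 and 277 CPM, a difference of 1.19 ± 0.27. Of 20 tested synthetases 3 had a higher change, Gars, Nars and Sars, where 0.404% of all genes did.

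Named by the rule for this comparison, Gm11713 and Pllp had 0 UMIs at P21 in Inhib_12. Their P60 levels were 5.21-fold and 3.47-fold the P21 limit of 3 UMIs, with the counting error of the P60 counts left out. Dhrs7, Nnat, Cdr2l and Phgdh had differences of 4.53 ± 0.99, 4.38 ± 0.76, 4.14 ± 0.95 and 3.87 ± 0.84. Pllp, a myelin protein, came from 10 UMIs in 3 cells, and Nnat, a membrane protein of developing brain, from 17 UMIs in 4 cells, 12 of them in P60 library 12. Without the cells of that library neither call held, with an adjusted p of 0.727 for Pllp and a difference of 2.79 with an adjusted p of 0.286 for Nnat, and those of 3110047P20Rik and Car4 were also lost (0.0519 and 0.0816). At the other end, Tpd52l1, Marcksl1, 3110047P20Rik and Car4 had 0 UMIs at P60, while they stayed detected in the other clusters. Their P21 levels were 6.40-fold, 24.6-fold, 3.52-fold and 2.24-fold the P60 limit of 3 UMIs. The last 2 rest on 11 and 7 UMIs at P21, whose counting error is left out. Marcksl1 also fell in each other cluster in which it was tested, with log2 changes from -3.59 in Inhib_11 to -0.63 in Inhib_5. Its fall was called in Inhib_11 and Inhib_6, among others. Cpne7 and Cryab differed by -4.56 ± 1.06 and -4.40 ± 0.60, and Cryab was higher at P60 than at P21 in the summed other clusters. Tested cluster by cluster, Cryab went both ways and was called in none. Its log2 changes ran from -0.86 in Inhib_11, the same direction as in Inhib_12, to 1.65 in Inhib_2. Of the interneuron lists, beside 0.681% of all genes called lower, 2 of 19 tested transcription factors (Id2 and Prox1), 5 of 16 genes of the Vip, Cck and Reln list (Cck, Cnr1, Htr3a, Kit and again Prox1), 1 of 6 of GABA synthesis and transport (Gad2) and 0 of 14 of the Sst and Pvalb list had a lower change in Inhib_12. Id2 and Kit, with differences of -2.24 ± 0.26 and -2.28 ± 0.48, were called in each of the 5 fits that left out a sample, Htr3a in 4, Prox1 and Cck in 2 each, and Gad2 and Cnr1 in 1 each. These fits all keep the different mix of the other clusters at the 2 ages. Against Inhib_11 alone none of these genes was called.

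Against Inhib_11 alone, the cluster most like it, 1 of 3705 genes was called for a different age change, Serpini1, a serine protease inhibitor of neurons. Of the 102 genes above, 85 were tested there and 79 had the same sign. In Inhib_11 by itself 40 of 2320 genes were called between the ages. Of the 92 genes called in Inhib_12, 69 were tested in Inhib_11, 67 had the same sign there and 20 were called in both. That is 20 of 92 calls of Inhib_12 and 20 of 40 of Inhib_11. Ddit3 rose in Inhib_11 as well, by 1.81 on the log2 scale, and Asns and Atf5 had changes of 1.40 each that were not called, whereas Herpud1 was at -0.15.

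**Figure D5:**
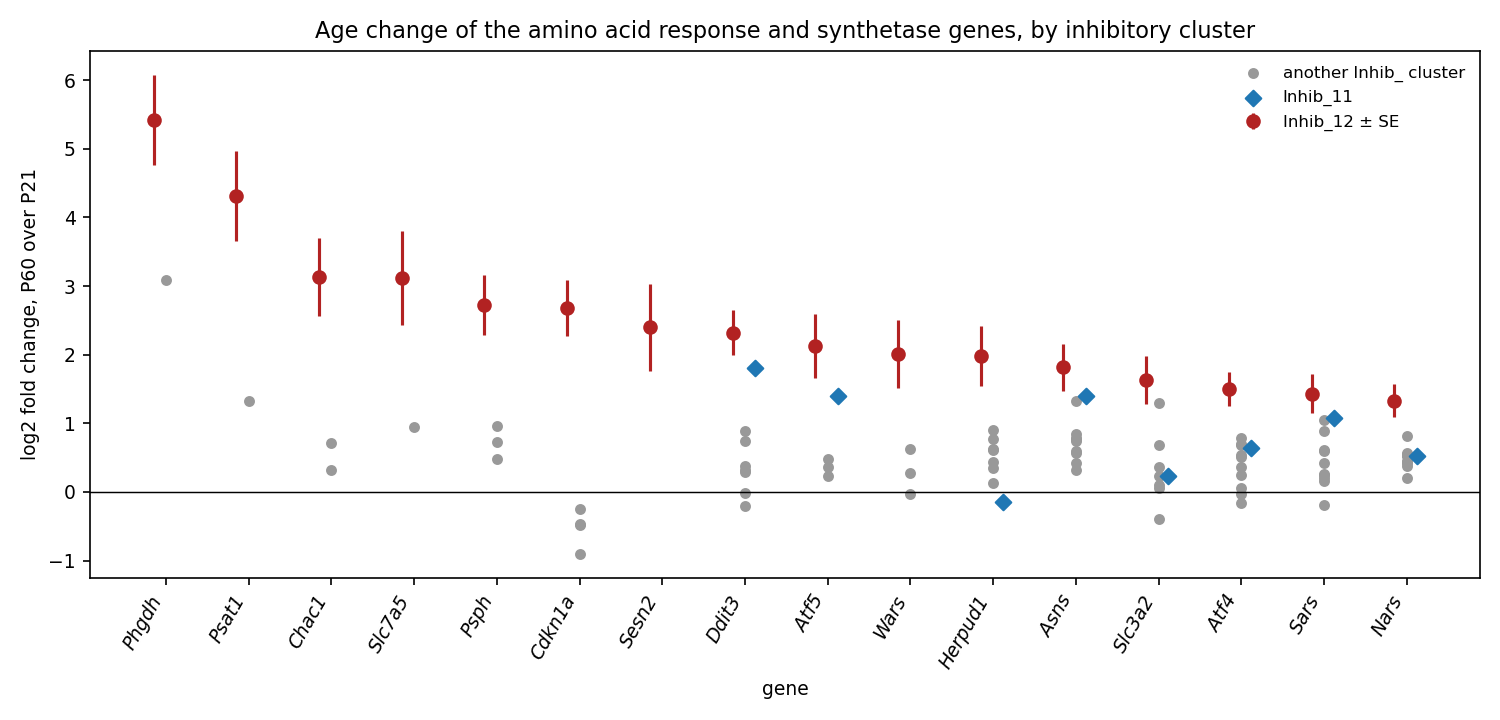
Log2 change from P21 to P60 of the called amino acid response and synthetase genes in Inhib_12 (red, bars are SE), in Inhib_11 (blue) and in the other inhibitory clusters in which the gene was tested (gray). Inhib_12 lies above every other cluster tested for each of these genes (Sesn2 was tested in no other cluster), and Inhib_11 comes nearest for Ddit3, Atf5, Asns and Sars. The genes were chosen by their calls in Inhib_12, so its place is not a test. Of the other clusters, Phgdh was tested in Inhib_6 alone, where it was also called higher (3.09). Psat1 was tested in Inhib_7 alone and Slc7a5 in Inhib_2 alone.

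Cocaine and saline were compared in the 9 P60 libraries with at least 2 Inhib_12 cells, 5 of cocaine and 4 of saline, over the 3 times together. Of 707 genes tested with edgeR's quasi-likelihood test 1 was called (0.141%), a lower one, and 37 had an unadjusted p below 0.05.

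No gene was called higher after cocaine by edgeR or by DESeq2. The 3 with the smallest p among those higher were Morf4l2, Slc17a8 and Mgll, with log2 changes of 0.68 ± 0.23, 1.65 ± 0.57 and 0.77 ± 0.28 and adjusted p of 0.433, 0.433 and 0.521. Slc17a8 was at 27.2, 0, 324 and 104 CPM in saline libraries 3, 7, 11 and 12 and at 181, 309, 275, 289 and 477 CPM in cocaine libraries 1, 4, 6, 9 and 10, so the groups overlapped through saline library 11. Cnr1 differed by 0.03 ± 0.24. With at most 5 cells behind a library, a gene that was not called may still differ.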

How the data were processed

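Single-cell RNA-seq was analysed from 12 P60 and 3 P21 libraries of mouse PFC. The authors aligned reads to mm9 with Cell Ranger, deposited raw UMI counts per gene and cell with a table of cells, removed cells by gene number and mitochondrial content, and clustered with Seurat 2.1.0. The deposited mitochondrial fraction of each cell was read from that table, and its values were printed here as percent. The fraction was computed by the authors before deposit. Cluster names were taken from the table as deposited. Retained cells per library numbered 1055 to 4439, with 8375172 to 42892922 UMIs. The 13 mitochondrial and 144 ribosomal protein genes (8.84 to 11.1% of UMIs) were left out, and 25988 genes were kept.

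Counts were summed over Inhib_12 cells. Samples with fewer than 10 cells were pooled by age and treatment for the age comparison, and libraries with at least 2 cells entered the cocaine comparison. The labels do not tie libraries to mice, so p-values measure only the spread between samples, which may be technical. In the cocaine and share comparisons the samples are single libraries. In the age and interaction fits they are the P21 libraries and the P60 saline and cocaine pools. Spread between the P60 libraries of a pool does not enter those fits. CPM were computed here from the summed counts, without TMM. Genes were tested with edgeR 4.0.16 (filterByExpr, TMM, robust quasi-likelihood) in R 4.3.3 with Benjamini-Hochberg adjustment over all genes tested. The interaction fit used each sample as a block. DESeq2 1.42.0, other scaling, no filter, and leaving out samples were alternatives. Shares were compared by exact permutation over libraries in SciPy 1.17.1. Pooled levels carry exact Poisson and shares exact binomial (Clopper-Pearson) intervals at 95%, which cover counting error only. A count of 0 was given the limit of 3 counts. Cells were thinned to 4000 UMIs, with shallower cells left out, for shares of cells with a UMI. The last 400 bases of named genes were searched against the mm9 genome with minimap2 2.31-r1302, and copies of at least 90% identity over 150 bases were counted. Positions are from the mm9 annotation. The fits were run on simulated counts with the same spread for every gene. This checked the code and does not measure how far the calls here hold.

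Named genes were Cacna1i and Slc35e2, up to 4 abundant members of each list and class-defining members at 0, the 12 genes with the highest P60 ratio to the next cluster (at least 20 UMIs in 8 cells), the 6 with the lowest ratio to the median cluster (median of at least 100 CPM), and per test the 6 largest rises and falls that did not overlap, or the 3 smallest p per direction. Other genes named from a list were chosen after their values were seen. The cluster, gene lists and tests were chosen with earlier results of these data known, and the lists of ATF4 targets, synthetases, chaperones, endocannabinoid genes, vesicular transporters and proteasome subunits after the values were seen. The gene called in the cocaine comparison is not reported here.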

Additional observations from a re-analysis of the deposited data

Results flagged for a closer look

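In 5 of 56 groups of 4 to 10 libraries 1 library lay far from the others by Dixon's criterion, where chance gives about 1 in 20. These were the Inhib_12 share of saline library 3 (14.3%), Iah1 in cocaine library 1 (452 CPM), Cryab in saline library 12 (41.7 CPM), 4933431E20Rik in cocaine library 10 (19.1 CPM) and Fscn1 in saline library 3 (40.8 CPM), all high and each resting on 2 to 5 Inhib_12 cells. The values of Cryab, 4933431E20Rik and Fscn1 were 2, 1 and 3 UMIs, too few to tell from counting error. For such counts the 1 in 20 need not hold.

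The age change of Inhib_12 differed from that of the other inhibitory clusters, by the interaction test, for 12 named genes. The fitted log2 differences were higher for Gm11713 (9.72), Pllp (9.26), Dhrs7 (4.53), Nnat (4.38), Cdr2l (4.14) and Phgdh (3.87), and lower for Tpd52l1 (-9.86), Marcksl1 (-9.83), 3110047P20Rik (-8.63), Car4 (-8.48), Cpne7 (-4.56) and Cryab (-4.40). Gm11713, Pllp, Tpd52l1, Marcksl1, 3110047P20Rik and Car4 had 0 UMIs at 1 age in Inhib_12, so their fitted values depend on the prior count and are not sizes of change. Without the cells of P60 library 12 the calls of Pllp, Nnat, 3110047P20Rik and Car4 were lost. Against Inhib_11 alone none of the 12 was called.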

How the results depend on the processing

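The number of genes called between P60 and P21 was 144 without a filter on low counts, 26 by DESeq2, 34 with the saline cells alone as 1 P60 sample (the same fit as without the cocaine pool, its spread taken from the P21 libraries), 73 with single saline libraries, and 7 to 511 when 1 sample was left out. The number with a different age change was 37 to 208 when 1 sample was left out and 1 against Inhib_11 alone. The cocaine comparison called 6 genes without a filter, 2 by DESeq2, 2 with at least 3 cells per library and 1 to 3 when 1 library was left out. The cause of these moves was not tested. The P21 minus saline difference in share was 0.283 percentage points with all retained cells as the denominator and 0.0330 to 2.89 when 1 library was left out, and the cocaine minus saline difference was -0.0163 with all retained cells, a reversal, and -0.825 to 2.39 when 1 library was left out. Of 134 values of 12 named age genes under the alternatives, with that fit counted under both names, 97 stayed on their side of the threshold, 37 lost the call and 0 turned direction. For the interaction genes these were 82 and 30 of 112. Fits without the cells with markers of another class or of P60 library 12, against Inhib_11 alone, and with time point as a covariate in the cocaine comparison, which also called 1 gene, were added after seeing the data. The P60 values rest on 30 cells in 11 libraries. No paired analysis was possible because the labels give no replicate numbers that tie a library of 1 age or treatment to a library of another.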
